A study of Mus musculus with 42 samples.

Results

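The response of mouse uterine trNK cells to a STAT3 inhibitor was read from 4 of the 42 samples of the series, all bulk RNA-Seq libraries: 2 libraries of cells cultured with IL-21 and the inhibitor (IL-21/iSTAT3) and 2 libraries of cells cultured with IL-21. The libraries were chosen by the in vitro treatment in the sample labels. trNK cells are the tissue-resident natural killer cells of the uterus, and trNK-V, sorted as 4-1BB-/low CD55-/low cells, is the subset that the study places earliest in their differentiation. Cells of both groups came from wild-type C57BL/6 females, young adults by the methods, on gestational day (gd) 6.5, and were taken as live NK1.1+ lymphocytes after culture. By the methods every culture held IL-15, the controls included, and lasted 3 days. IL-21 was given at 20 ng/mL in both groups. The inhibitor was the small molecule Stattic, at 1 μM by the labels. The methods print a millimolar dose, and this difference could not be settled from the sources used here. A further 2 libraries, labelled as untreated in vitro, hold cells without IL-21 and without the inhibitor and entered the same fit. The samples used here include no culture with the inhibitor but without IL-21, so an effect of the compound alone and an effect that needs IL-21 cannot be told apart. The labels do not say whether libraries of 1 group came from separate animals or cultures, so the p-values measure the spread between these libraries, which may be technical.

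IL-21 binds a receptor of IL-21R and the common gamma chain, whose JAK kinases phosphorylate STAT3. STAT3 then dimerizes, enters the nucleus and binds DNA, and in NK cells IL-21 is known to raise perforin, granzymes and cytokines. Cells answer misfolded proteins with the heat shock response, in which the factor HSF1 raises chaperones, and answer oxidants and electrophiles with the NRF2 response, which raises enzymes of glutathione synthesis, thioredoxin recycling and haem breakdown.

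The 2 IL-21/iSTAT3 libraries held 29537298 and 19161030 counts, the 2 IL-21 libraries 12189886 and 13484192, and the 2 libraries without IL-21 18704191 and 18224000. Mitochondrial transcripts took 0.861% to 1.89% of the counts. Of 16 NK cell identity genes, 16 were tested and 0 were called between the IL-21/iSTAT3 and IL-21 libraries. Both inhibitor libraries lay below the 4 other culture libraries for 4 of 16 (21.5% of all tested genes), among them Ncr1, the activating receptor NKp46, at 473 and 358 RPKM (counts scaled by gene length and by the library total) without IL-21, 146 and 156 with IL-21 and 46.8 and 77.3 with the inhibitor, and against the cultures without IL-21 2 of 16 were called lower (1.8% of all tested genes). Klrk1, another activating receptor, was at 322 and 289 RPKM with IL-21 and 245 and 331 RPKM with the inhibitor. The summed RPKM of markers of other cells stayed between 36.1 and 136.8 for T cells (3 of 10 markers at 0 in the 6 culture libraries), 46.7 and 256.9 for B and plasma cells (3 of 8 at 0), 19.9 and 29.9 for macrophages (6 of 10 at 0), 15.6 and 50.2 for endothelial cells (2 of 5 at 0) and 9.87 and 36.9 for epithelial cells (3 of 5 at 0). Markers of mast cells reached at most 10.7 RPKM in sum, of neutrophils 6.85, of erythrocytes 3.95 and of stromal cells 0.0198. No marker of another cell type that was tested was called between the 2 groups. In bulk libraries, fewer cells of a type and less RNA per cell cannot be told apart.

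With the inhibitor, 15 of 19 tested chaperone genes rose, of which the 10 that did not depend on the inhibitor libraries for their test rose 3.14-fold (Ahsa1) to 15.6-fold (Dnajb1) in mean RPKM. 5 of 28 tested genes of the NRF2 response rose. These calls were lost under edgeR's own filter on low counts, though not with no gene filter at all. A few genes that IL-21 had raised, among them Spp1, Prf1, Gadd45g and Gpr18, fell. Of 4159 tested genes (RPKM above 10 in both libraries of any of the 3 culture groups), 123 (2.96%) were called by edgeR's quasi-likelihood test, where a call needs a more than 2-fold change with a Benjamini-Hochberg adjusted p under 0.05. 75 were higher with the inhibitor (1.8%) and 48 were lower (1.15%). The libraries of the 2 groups stood apart for each of the 123, and for 2037 of all tested genes (49%). The length of the list depended on the libraries fitted and on the genes tested. Fewer genes were called with any 1 library of the 2 groups left out. Such a fit leaves its group without a replicate, so the loss cannot be laid to that library. Over all genes that passed edgeR's lighter filter on low counts, 1 gene was called, Hsph1. With no gene filter, 189 were called higher and 272 lower.

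**Figure D1:**
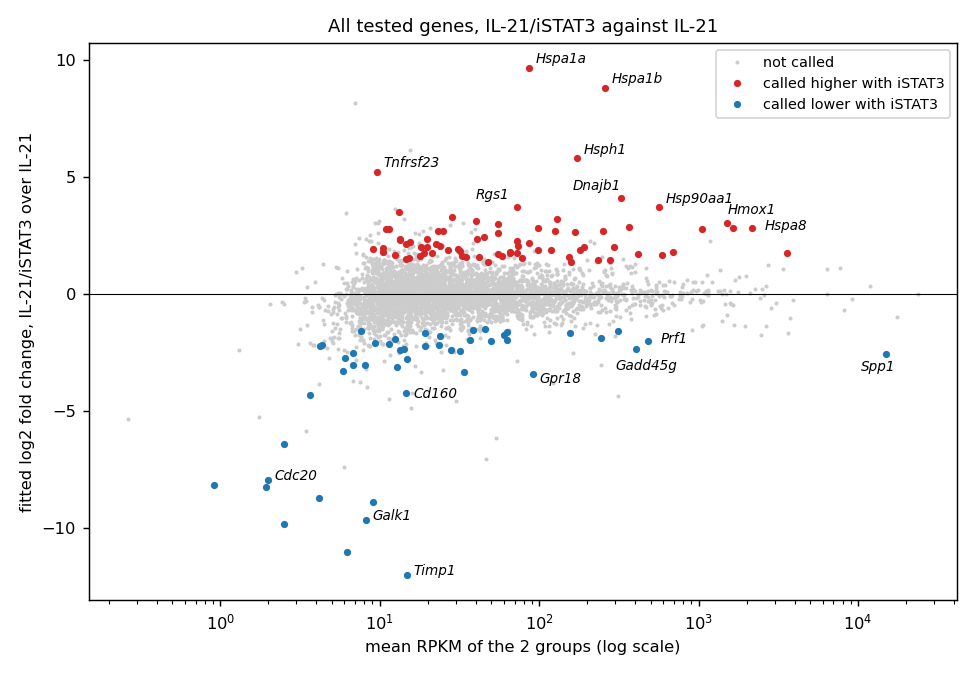
Fitted log2 fold change of the IL-21/iSTAT3 over the IL-21 libraries (vertical axis) against the mean RPKM of both groups (horizontal axis, log scale) for the 4159 tested genes. Each point is 1 gene, red where called higher (75) and blue where called lower (48). The chaperone genes Hspa1a, Hspa1b and Hsph1 lie at the top and Spp1, the most abundant called gene, at the lower right.

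Chaperone genes made the clearest group. Of 22 genes on a heat shock and chaperone list, 19 were tested, and 15 of these rose with the inhibitor, against 1.8% of all tested genes. Among the 19, 6 (Hspa1a, Hspa1b, Hsph1, Hspa4l, Dnajb4 and Bag3) reached the RPKM minimum only in the inhibitor libraries, so that a rise was built into their being tested. Of the 13 others, 10 rose, and the fitted log2 fold change was above 0 for 13 of 13, with a median of 2.69 beside -0.07 over the 3920 genes that did not depend on the inhibitor libraries for their test. Fewer of the 19 were called with any 1 library of the 2 groups left out, a fit that leaves its group without a replicate. The median log2 fold change over the 19 stayed between 2.72 and 2.94 in these fits. Under the lighter filter 1 of 19 was called, and with no gene filter 17 of 19 were. The same list had a median of 0.29 between IL-21 and no IL-21 in this culture, with 0 of 19 called, where 0.289% of all tested genes were. It had a median of 2.93 between IL-21/iSTAT3 and no IL-21, with 18 of 19 called higher, where 2.93% of all tested genes were (4.74% in either direction). The latter comparison shares the inhibitor libraries and the 6 genes that only these brought into the test.

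The stress-inducible HSP70 genes were near 0 without the inhibitor. Hspa1a (ENSMUSG00000091971, chr17:34969190-34972156, minus strand, GRCm38) stood at 0 and 0.111 RPKM without IL-21, 0.0276 and 0.425 RPKM with IL-21 and 187 and 156 RPKM with IL-21/iSTAT3. This is 1 and 17 counts in the IL-21 libraries against 16391 and 8865 counts in the inhibitor libraries, and the groups did not overlap (log2 fold change 9.64, SE 1.08, adjusted p = 0.00776). Hspa1b (ENSMUSG00000090877, chr17:34956436-34959238, minus strand) went from 0.234 and 2.3 to 598 and 430.1 RPKM (log2 fold change 8.79, SE 1.05, adjusted p = 0.0103). The genes are near-identical copies, so how reads were split between them is uncertain. Such levels were also seen elsewhere in the series. The freshly sorted trNK-V libraries of gd8.5 held Hspa1a at 50.7 and 229 RPKM and Hspa1b at 169.8 and 628 RPKM, while Hspa1a reached at most 59.9 RPKM and Hspa1b 95.4 RPKM in sorted trNK-D and trNK-T cells.

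The sequences just before the starts of these 2 genes are shown because these copies, whose reads cannot be told apart with certainty, hold the same pair of the GAA units that HSF1 is known to bind. The RefSeq promoter table (GRCm38.p6) was searched for GAANNTTC and TTCNNGAA, 2 inverted GAA units in either order, each of which reads the same on both strands and which may overlap by sharing a unit. Capitals mark the match, and each sequence is written 5′ to 3′ along the gene's strand, ending at the base before the start.
Hspa1a, chr17:34972157-34972306, minus strand: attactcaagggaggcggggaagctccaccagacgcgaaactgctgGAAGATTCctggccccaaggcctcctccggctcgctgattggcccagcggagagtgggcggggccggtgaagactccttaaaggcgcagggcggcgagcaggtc
Hspa1b, chr17:34959239-34959388, minus strand: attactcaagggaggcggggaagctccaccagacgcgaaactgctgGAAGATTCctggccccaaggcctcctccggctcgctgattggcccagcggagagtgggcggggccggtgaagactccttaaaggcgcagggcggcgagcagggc
In both, the match begins 104 bases before the start. Over the 250 bases before the start the 2 genes were identical at 247 bases (98.8%). Shorter windows around the match are given for the other called members that held it, the co-chaperones Dnaja1, Dnajb4 and Fkbp4 and the HSP110 gene Hsph1.
Hsph1, chr5:149636352-149636379, minus strand: ggtagaatctTTCTCGAAggctcgagaa
Dnaja1, chr4:40722334-40722361, plus strand: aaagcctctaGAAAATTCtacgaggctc
Fkbp4, chr6:128438790-128438817, minus strand: cgcttctctaGAAAGTTCtccgctcccg
Dnajb4, chr3:152193846-152193869, minus strand: tcgttcgctgTTCTAGAAagtaca
Of the 15 chaperone genes that rose, 12 had an entry in the promoter table, and 6 of these 12 held either pair within 250 bases before an annotated start (50% of genes), against 14.5% of the 27025 genes in the table. Over all tested members of the list it was 8 of 16, since Hspd1 and Hspe1, which were not called, also hold a pair, and over all genes that rose it was 10 of 57 (17.5%). The near-copies Hspa1a and Hspa1b, and Hspd1 and Hspe1, which lie head to head and share a promoter, each count as 2 genes. Among the 6, Hspa1a, Hspa1b, Hsph1 and Dnajb4 reached the RPKM minimum only in the inhibitor libraries, and of the 7 others with an entry Dnaja1 and Fkbp4 held a pair. A longer run of 3 such units, alternating in orientation at the same spacing and searched on both strands, was in 0 of the 12 and in 0.514% of all genes. A match is a description of the letters and does not show a bound site.

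Several partners of HSP70 rose with it, while Bag3, given below, was not called. Hsph1, the HSP110 nucleotide exchange factor of HSP70, was at 6.18 and 5.54 RPKM without IL-21 and 6.58 and 6.51 RPKM with IL-21. With the inhibitor it was at 398 and 280.1 RPKM (log2 fold change 5.79, SE 0.36, adjusted p = 0.00116), the smallest adjusted p of the comparison. Its call was kept under each of the 11 other settings tried. The J-domain co-chaperone Dnajb1 rose from 22 and 56.6 to 601 and 622 RPKM (log2 fold change 4.08, SE 0.47, adjusted p = 0.0088). Dnaja1 and Dnajb4, of the same family, rose from 45.9 and 52.1 to 278 and 290.3 RPKM and from 8.99 and 5.11 to 34 and 51 RPKM (log2 fold changes 2.64 and 2.68). Hspa4l, a second HSP110 gene, rose from 2.37 and 2.28 to 25.9 and 22.4 RPKM (log2 fold change 3.48, SE 0.33, adjusted p = 0.00652). These members thus reached very different levels with the inhibitor, while in each the inhibitor libraries stayed apart from the other 4.

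Hspa8 and Hsp90ab1, constitutive chaperones that the cells held at high levels in every culture, also rose. Hspa8, the housekeeping HSP70, was at 529 and 500.5 RPKM without IL-21, 559 and 577 RPKM with IL-21 and 3578 and 3877 RPKM with the inhibitor (log2 fold change 2.82, SE 0.30, adjusted p = 0.00706). Hsp90ab1, the constitutive cytosolic HSP90, went from 429.6 and 434 to 3106 and 2601 RPKM (log2 fold change 2.82, SE 0.32, adjusted p = 0.00802). Its inducible counterpart Hsp90aa1 went from 113 and 58.5 to 831 and 1255 RPKM (log2 fold change 3.69, SE 0.51, adjusted p = 0.0154). The co-chaperones of HSP90 moved the same way. Stip1, which bridges HSP70 and HSP90, rose from 80.4 and 109 to 713 and 554 RPKM, and the immunophilin Fkbp4 from 20.6 and 30.9 to 217 and 122 RPKM (log2 fold changes 2.85 and 2.83, adjusted p = 0.00706 and 0.0218). Cacybp, Chordc1 and Ahsa1, the last an activator of the HSP90 ATPase, rose with log2 fold changes of 2.69, 1.85 and 1.75. Ahsa1 was the only 1 of the 12 list members tested in the time course that was called higher with IL-21 at 72 h (log2 fold change 3.62). Its values there were low, at 0.296 and 0.214 RPKM without IL-21 and 6.83 and 0.568 RPKM with it. In the culture its log2 fold change with IL-21 was 0.45 and was not called.

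The 4 tested members that missed the call were Bag3, Hspe1, Hspd1 and Hspa4. Bag3, a co-chaperone of HSP70, stood at 4.74 and 5.36 RPKM with IL-21 and 38.9 and 17.8 RPKM with the inhibitor (adjusted p = 0.0608). The mitochondrial pair Hspe1 and Hspd1 had log2 fold changes of 2.17 and 1.27 (adjusted p = 0.112 and 0.0751), and Hspa4 of 1.00 (adjusted p = 0.174). Untested for low values were Hspb1, at 2.31 and 0 RPKM with IL-21 and 41.9 and 1.57 RPKM with the inhibitor, Cryab, at 0 RPKM in both inhibitor libraries, and the factor Hsf1, at 1.94 and 7.86 RPKM with IL-21 against 9.39 and 1.89 with the inhibitor.

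**Figure D2:**
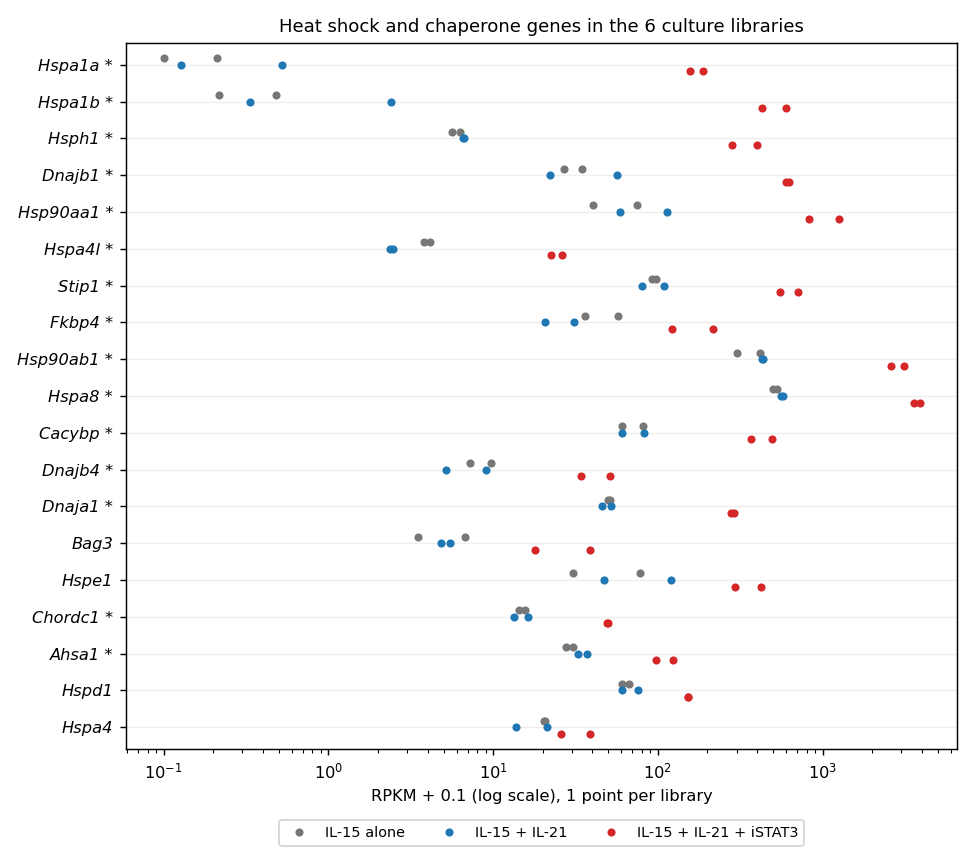
RPKM plus 0.1 (horizontal axis, log scale) of the 19 tested heat shock and chaperone genes, ordered by fitted log2 fold change, with 1 point per library for IL-15 alone (grey), IL-15 and IL-21 (blue) and IL-15, IL-21 and iSTAT3 (red). Asterisks mark the 15 genes called higher in IL-21/iSTAT3 against IL-21. In all 19 both red points lie to the right of the other 4, as for 11.4% of all tested genes. Of the 19, 6 reached the RPKM minimum only in the inhibitor libraries.

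Genes outside the list, picked after their values were seen, extended the group. The HSP70 and HSP90 co-chaperones St13, Ptges3 and Ahsa2 rose with log2 fold changes of 2.37, 2.01 and 2.98. In the 26 other libraries of the cultures, the time course and the sorted subsets, no value of 13 of the 15 chaperone genes that rose reached that of either inhibitor library, and the exceptions were Hspa1a and Hspa1b. The same held for 67 of the 75 higher genes and for 6.83% of all tested genes. The experiments were prepared separately, so levels set across them are a description.

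The NRF2 response gave the next group. Of 38 listed genes 28 were tested, 5 rose with the inhibitor and 0 fell, against 1.8% and 1.15% of all tested genes. Of the 28, 5 (Gclc, Gclm, Mafg, Blvrb and Pgd) reached the RPKM minimum only in the inhibitor libraries. Of the 23 others 3 rose, and the fitted log2 fold change was above 0 for 20, with a median of 1.08. The 5 calls were lost under edgeR's lighter filter on low counts and kept with no gene filter, by DESeq2 and by limma-voom. Fewer were kept with any 1 library of the 2 groups left out, a fit that leaves its group without a replicate. In this culture IL-21 alone gave a median of 0.13 over the list, with 1 of 28 called, where 0.289% of all tested genes were. The 5 that rose were Hmox1, Srxn1, Gclm, Gclc and Prdx6.

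Hmox1, the haem oxygenase that breaks down haem, stood at 23.9 and 17.7 RPKM without IL-21, 190.1 and 513 RPKM with IL-21 and 2640.1 and 2691 RPKM with the inhibitor (log2 fold change 3.05, SE 0.47, adjusted p = 0.022). It was also the only gene called in the same direction by IL-21 (log2 fold change 4.24 over no IL-21) and by the inhibitor over IL-21. Srxn1, which repairs overoxidized peroxiredoxins, rose from 17.7 and 37.6 to 326 and 138 RPKM (log2 fold change 3.19, SE 0.66, adjusted p = 0.0487). The subunits of glutamate-cysteine ligase, the first enzyme of glutathione synthesis, rose together: the catalytic Gclc from 6.67 and 4.79 to 28.7 and 21.7 RPKM and the modifier Gclm from 4.98 and 4.75 to 17.7 and 26.4 RPKM (log2 fold changes 2.23 and 2.28, adjusted p = 0.0395 and 0.0479). The peroxiredoxin Prdx6 rose from 169 and 146 to 353 and 452 RPKM (log2 fold change 1.45, SE 0.30, adjusted p = 0.0472). For each of the 5, which were picked as called higher, both inhibitor libraries lay above the 26 other libraries. This held for 15 of the 28 tested members, for 89.3% of the higher genes and for 6.83% of all tested genes.

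Several further members were higher in both inhibitor libraries without passing the test. Osgin1 stood at 3.59 and 19.5 RPKM with IL-21 and 161 and 111 RPKM with the inhibitor (adjusted p = 0.0517), and Nqo1, the quinone reductase often used as a marker of the response, at 67 and 75.1 RPKM with IL-21 against 136 and 178 with the inhibitor (adjusted p = 0.124). The ferritin chains Fth1 and Ftl1 stood at 5569.7 and 4604 against 6565 and 13931 RPKM and at 4532 and 4040.1 against 8002 and 8944 RPKM (adjusted p = 0.211 and 0.108). The 3 members with a fitted change below 0 were Sod2, Akr1b3 and Gsto1, of which Gsto1, an omega-class glutathione transferase, stood lowest, at 11.5 and 12.2 RPKM with IL-21 against 3.99 and 3.95 with the inhibitor (adjusted p = 0.127). Nfe2l2, the gene of NRF2 itself, stood at 27.9 and 46.8 RPKM with IL-21 against 85 and 117 with the inhibitor (adjusted p = 0.0647).

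**Figure D3:**
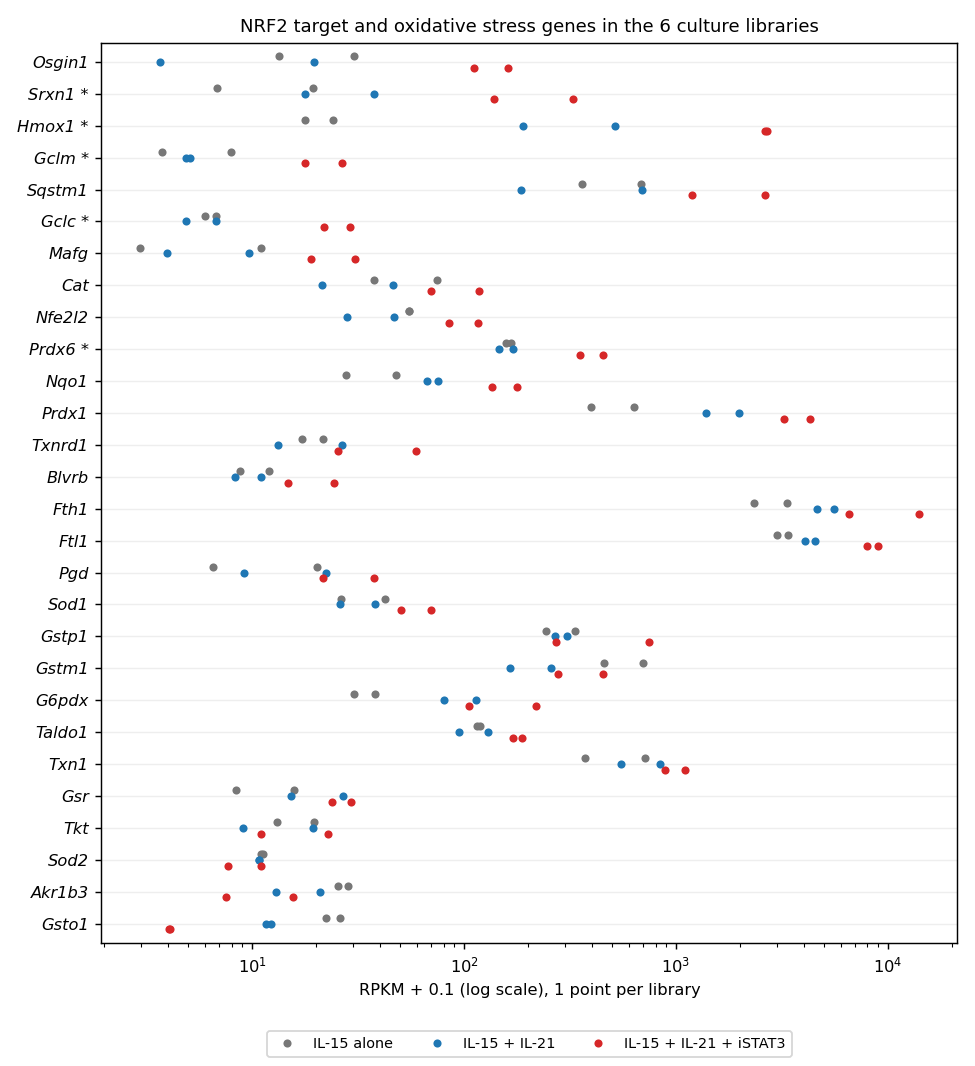
RPKM plus 0.1 (horizontal axis, log scale) of the 28 tested NRF2 target and oxidative stress genes, ordered by fitted log2 fold change, with 1 point per library in the colours named in the legend. Asterisks mark the 5 genes called higher in IL-21/iSTAT3 against IL-21, and the red points of Hmox1 (2640.1 and 2691 RPKM) lie above the blue ones (190.1 and 513 RPKM).

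Fewer genes were called in the other stress lists. Of 24 tested genes of the amino acid response, in which the factor ATF4 raises genes of amino acid supply, 3 rose (1.8% of all tested genes did) and 0 fell, with fitted log2 fold changes from -2.86 to 6.16 and a median of 0.16. The 3 were Ppp1r15a, the phosphatase subunit that restores translation, from 16.9 and 16.2 to 111 and 78.4 RPKM (log2 fold change 2.61), Ddit3, which encodes CHOP, from 83.7 and 77.3 to 233 and 373 RPKM (2.02 on the log2 scale), and the transporter Slc38a2, from 26.6 and 29.3 to 71.9 and 61.9 RPKM (1.36 on the log2 scale). The largest value belonged to Atf3, a stress-induced repressor, which was not called and reached the RPKM minimum only in the inhibitor libraries, at 0.267 and 0.654 RPKM with IL-21 against 23 and 38.2 with the inhibitor (log2 fold change 6.16, SE 1.30, adjusted p = 0.0511). Genes of amino acid synthesis on the list were not called: Asns stood at 58.9 and 98.3 RPKM with IL-21 and 28.7 and 64.7 RPKM with the inhibitor, and Psat1 at 23.8 and 36.6 RPKM with IL-21 against 10.7 and 8.22 with the inhibitor. Of 19 tested genes on a separate list of endoplasmic reticulum stress, which leaves out Ddit3 and Ppp1r15a, 0 were called, with a median of -0.11. The chaperone Hspa5 of that compartment stood at 193 and 336 RPKM with IL-21 against 204 and 156 with the inhibitor. The chaperone genes called higher were cytosolic ones. The mitochondrial Hspe1 and Hspd1 missed the call, although both inhibitor libraries lay above the other culture libraries for each. The lumenal chaperones Hspa5 and Hsp90b1 (adjusted p = 0.529 and 0.416) and the lumenal factors Sdf2l1 and Manf (adjusted p = 0.262 and 0.166) were not called either.

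The next 3 lists had 1 called gene each, where 1.8% of all tested genes rose. Of 7 tested p53 response genes, 1 rose, the cell cycle inhibitor Cdkn1a, from 86.4 and 75.8 to 223 and 227 RPKM (log2 fold change 1.57, SE 0.31, adjusted p = 0.0442). Of 14 tested immediate early genes, 1 rose, the zinc finger factor Klf6, from 26.2 and 46 to 213 and 214 RPKM (log2 fold change 2.68, SE 0.35, adjusted p = 0.0136). Of 15 tested genes of glycolysis and hypoxia, 1 rose, P4ha1, a collagen prolyl hydroxylase, from 4.61 and 8.6 to 43.2 and 35.7 RPKM (log2 fold change 2.69, SE 0.42, adjusted p = 0.022). P4ha1 reached the RPKM minimum only in the inhibitor libraries. The medians of these lists were 1.15, 0.41 and -0.24, the first with 6 of 7 above 0. Of the metallothioneins, which answer metals and oxidants, 1 gene was tested and not called: Mt1 stood at 218 and 345 RPKM with IL-21 and 48.8 and 143 RPKM with the inhibitor. In the 13 tested genes of apoptosis and survival 0 were called (median -0.09), with Bcl2l11 and Bcl2a1d nearest (adjusted p = 0.195 and 0.407).

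**Figure D4:**
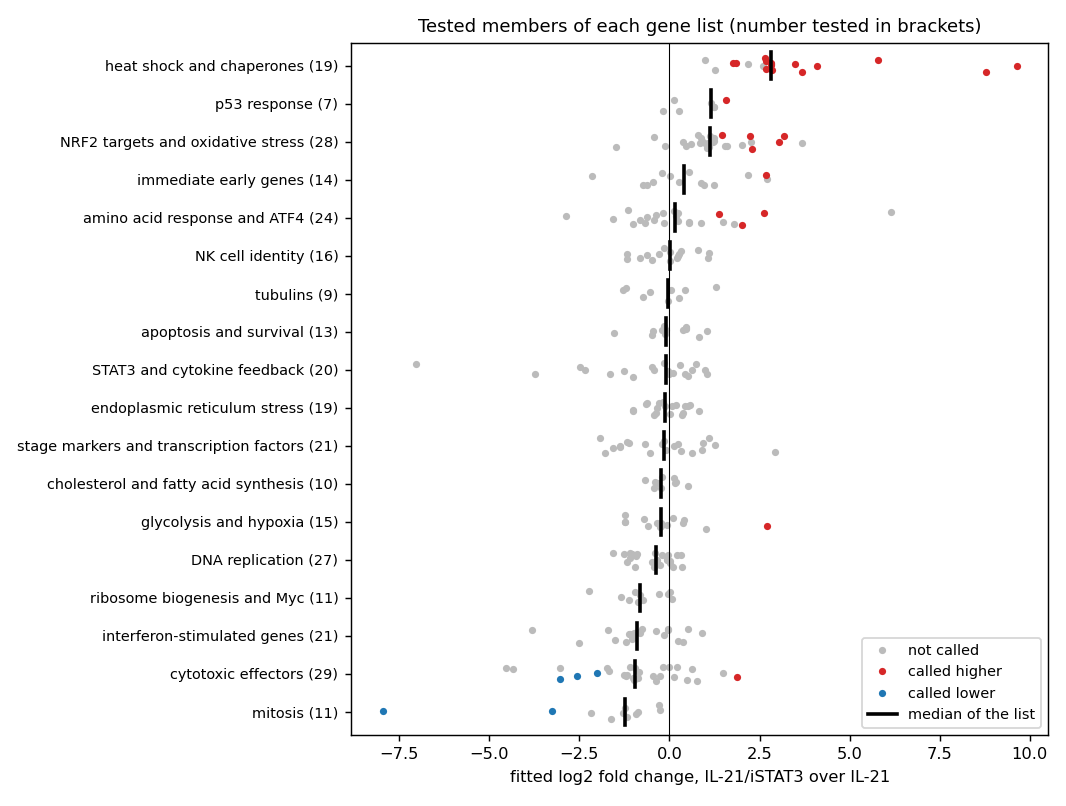
Fitted log2 fold change of IL-21/iSTAT3 over IL-21 (horizontal axis) for each tested member of 18 gene lists (rows, number tested in brackets), red where called higher, blue where called lower and grey where not called. Black bars mark each list's median, which is 2.82 for the heat shock list, 1.11 for the NRF2 list, -0.94 for the cytotoxic effectors and -1.23 for the mitosis list.

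Whether the inhibitor undid IL-21 effects was asked of IL-21 genes found in other libraries, the time course with and without IL-21, which shares no library with the cultures. At 6 h, a time chosen after the 72 h result had been seen, IL-21 raised 21 genes there, 20 of which were tested in the culture. In the culture these 20 had a median log2 fold change of 1.99 with IL-21 over no IL-21 and of -1.0 with the inhibitor over IL-21. With the inhibitor 4 of 20 fell, 20% against 1.15% of all tested genes, and 0 rose, and the fitted change was below 0 for 16 of 20. In 13 of 20 both inhibitor libraries lay below both IL-21 libraries, which held for 28.9% of all tested genes. Against the cultures without IL-21, 7 of 20 were still called higher (2.93% of all tested genes), with a median of 1.29. At 24 h IL-21 raised 12 genes in the time course, and the 10 tested in the culture had a median of 1.53 with IL-21 and of -0.18 with the inhibitor over IL-21. With the inhibitor 1 of these 10 fell (10%) and 5 were below 0. Of genes that IL-21 lowered in the time course, 4 of 41 rose with the inhibitor for 6 h (9.76%) and 1 fell, and 5 of 39 rose for 24 h (12.8%) and 0 fell, beside 1.8% of all tested genes that rose. A difference between the times was not tested. The 4 genes of the 6 h set that fell were Gpr18, Spp1, Gadd45g and Prf1.

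Spp1, which encodes the secreted protein osteopontin, was at 2295 and 1298 RPKM without IL-21, 31497 and 20120.5 RPKM with IL-21 and 2912 and 5305 RPKM with the inhibitor (log2 fold change -2.56, SE 0.48, adjusted p = 0.0413). Prf1, the pore-forming perforin of cytotoxic granules, was at 46 and 57.9 RPKM without IL-21, 523 and 1038 with IL-21 and 217 and 140.0 with the inhibitor (log2 fold change -2.01, SE 0.40, adjusted p = 0.0453). Both inhibitor values of each gene lay between those of the groups with and without IL-21. Prf1 was still called higher with IL-21/iSTAT3 than without IL-21 (log2 fold change 2.07, adjusted p = 0.0307), and Spp1 was not (log2 fold change 1.49, adjusted p = 0.116). Gadd45g, a stress and differentiation adaptor of p38 signalling, was at 59.3 and 52.3 RPKM without IL-21, 578 and 779.9 with IL-21 and 90.7 and 158 with the inhibitor (log2 fold change -2.34, SE 0.37, adjusted p = 0.022). Gpr18, a G protein-coupled receptor of lymphocytes, was at 41.8 and 39.3 RPKM without IL-21, 179 and 155 with IL-21 and 13.6 and 15.7 with the inhibitor (log2 fold change -3.41, SE 0.34, adjusted p = 0.00652). It alone of the 4 ended below the cultures without IL-21 in both libraries. With 1 library left out, a fit that leaves its group without a replicate, the falls of Spp1 and Prf1 were each not called in several fits. That of Gpr18 was not called without IL-21/iSTAT3 replicate 1. Gadd45g was not read in these fits.

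The other 16 genes were not called. Among them Gzmb, granzyme B, stood at 2376 and 1756 RPKM without IL-21, 20262 and 27116 RPKM with IL-21 and 11413 and 10819 RPKM with the inhibitor (log2 fold change -0.98, SE 0.32, adjusted p = 0.155). Icos, a costimulatory receptor, stood at 58 and 47.2 RPKM without IL-21, 142 and 133 with IL-21 and 113 and 119 with the inhibitor, and Hsd17b10, a mitochondrial dehydrogenase, at 168 and 108 RPKM without IL-21, 1006 and 665 with IL-21 and 430.2 and 711 with the inhibitor. Lilr4b, a receptor gene, was above the IL-21 libraries in both inhibitor libraries, at 35.8 and 65.1 RPKM without IL-21, 158 and 217 with IL-21 and 392 and 365 with the inhibitor, without being called (log2 fold change 1.12, adjusted p = 0.149). These genes thus ranged from a fall past the level without IL-21 to a level above that with IL-21.

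**Figure D5:**
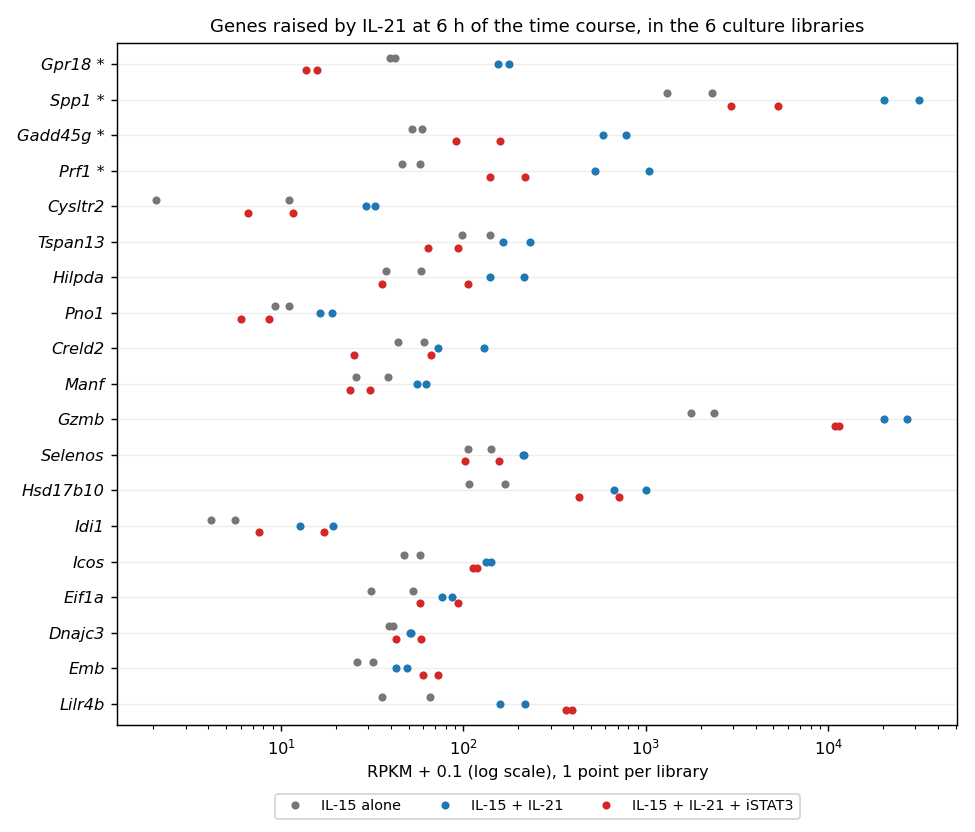
RPKM plus 0.1 (horizontal axis, log scale) in the 6 culture libraries of the tested genes that IL-21 raised at 6 h of the time course (1 predicted gene left out), ordered by fitted log2 fold change of IL-21/iSTAT3 over IL-21, with 1 point per library in the colours named in the legend. Asterisks mark Gpr18, Spp1, Gadd45g and Prf1, the 4 genes called lower with the inhibitor, whose red points lie left of the blue ones.

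At 72 h of the time course IL-21 changed 283 genes (8.08% of those tested there), of which 230 were higher (6.57%) and 53 lower (1.51%). The 72 h libraries without IL-21 stood apart, with 8.44% and 11.8% of counts in mitochondrial transcripts and 10728 and 11671 genes seen, beside 4.37% and 5.73% and 14004 and 12004 genes with IL-21. The part of this in the 72 h calls was not tested. Of the 176 raised genes that were tested in the culture, 4 fell and 4 rose with the inhibitor, 2.27% each, beside 1.15% and 1.8% of all tested genes. Their median log2 fold change with the inhibitor was -0.25, below 0 for 107 of 176, and with IL-21 in the culture itself it was 0.13. The 4 that fell were Mxd3, Gpr18, Spp1 and Susd3. Mxd3 was low at 72 h, at 0 and 0.0101 RPKM without IL-21 and 2.84 and 0.0296 RPKM with it. In the culture its log2 fold change with IL-21 was -0.76. Of the 32 lowered genes tested in the culture, 3 rose with the inhibitor, 9.38% against 1.8% of all tested genes, and 0 fell. These were Rgs1, Clk1 and a predicted gene.

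In the culture itself IL-21 raised 12 genes over no IL-21 and lowered 0 by edgeR (0.289% of those tested, with 381 genes at an unadjusted p under 0.05 and 162 called by DESeq2). The 2 comparisons share the IL-21 libraries, so the values are given side by side and not as independent evidence. With the inhibitor 4 of the 12 fell, again Gpr18, Spp1, Gadd45g and Prf1, and 1 rose, Hmox1, against 1.15% and 1.8% of all tested genes. In 9 of 12 both inhibitor libraries lay between those of the other 2 groups, a range that the choice of these genes made wide. Of all tested genes, 0.938% lay below both IL-21 and above both untreated libraries. Still called higher with IL-21/iSTAT3 than without IL-21 were 8 of 12, against 2.93%. Ifng, the cytokine interferon gamma, was at 12 and 22.1 RPKM without IL-21, 354 and 363 RPKM with IL-21 and 176 and 305 RPKM with the inhibitor (log2 fold change over IL-21 -0.47, adjusted p = 0.605). Ctla4, an inhibitory receptor, was at 0.0229 and 0 RPKM without IL-21, 52.5 and 49.7 with IL-21 and 31 and 12.8 with the inhibitor, and Ly6a, a surface protein of activated lymphocytes, at 47.6 and 7.88 RPKM without IL-21, 4722 and 2985 with IL-21 and 1042 and 1759 with the inhibitor. Bcl3, an IκB family regulator, was at 4.13 and 2.9 RPKM without IL-21, 24.3 and 36.4 with IL-21 and 8.67 and 9.32 with the inhibitor (adjusted p = 0.0987). Of these 4 genes, 0 were called between IL-21/iSTAT3 and IL-21.

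Most cytotoxic effectors had fitted changes below 0, and few passed the test. Of 29 tested, 3 fell and 1 rose, against 1.15% and 1.8% of all tested genes, and the fitted change was below 0 for 22, with a median of -0.94. Besides Spp1 and Prf1 the fall was called for Tnfsf10, the death ligand TRAIL, from 15.6 and 8.87 to 0.778 and 2 RPKM (log2 fold change -3.05, SE 0.59, adjusted p = 0.0435). Tnfsf10 stood at 14.3 and 13.8 RPKM without IL-21, so the inhibitor cultures lay below both other groups. The gene that rose was Ctsc, the protease that activates granzymes, from 71.7 and 92.9 to 359 and 198 RPKM (log2 fold change 1.86, SE 0.38, adjusted p = 0.0472). Gzma, granzyme A, stood at 317 and 1107 RPKM without IL-21, 4839 and 2880.0 RPKM with IL-21 and 1054 and 1122 RPKM with the inhibitor, apart from the IL-21 libraries but not called (adjusted p = 0.161). The chemokine Ccl3 stood at 987 and 206 RPKM with IL-21 against 10.3 and 46 with the inhibitor (adjusted p = 0.0751), and Ccl4 at 7694 and 3559 RPKM with IL-21 against 125 and 3198 with the inhibitor, where the inhibitor libraries lay far apart. Granzyme genes of the chromosome 14 cluster, Gzmb among them, are similar copies, so their reads may be split uncertainly. Gzma lies on chromosome 13.

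The markers that the study uses to stage these cells were not called by edgeR. Tnfrsf9, which encodes 4-1BB, stood at 289 and 211 RPKM without IL-21, 569 and 374 RPKM with IL-21 and 101 and 152 RPKM with the inhibitor (log2 fold change -1.80, SE 0.38, adjusted p = 0.0506), and limma-voom put it at an adjusted p of 0.0481. Cd55, a complement regulator, stood at 35.9 and 39.6 RPKM without IL-21, 42.8 and 37.4 with IL-21 and 35.7 and 34.5 with the inhibitor (log2 fold change -0.09, SE 0.29, adjusted p = 0.909). Klrg1, an inhibitory receptor of mature NK cells, stood at 131 and 226 RPKM without IL-21, 148 and 132 with IL-21 and 66.5 and 98 with the inhibitor (log2 fold change -0.67, SE 0.38, adjusted p = 0.397). In the list of 21 tested stage markers and transcription factors 0 were called, with a median of -0.15. Besides Tnfrsf9, Id2, a factor needed for NK cells, came nearest, at 2441 and 2144 RPKM without IL-21, 3336 and 2435 with IL-21 and 891 and 1178 with the inhibitor (adjusted p = 0.0785).

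Genes of the pathway itself were not called either. Of 20 tested genes of STAT3 and cytokine feedback, 0 were called between IL-21/iSTAT3 and IL-21, with a median of -0.10. Stat3 stood at 9.99 and 26.9 RPKM without IL-21, 19.3 and 35.5 RPKM with IL-21 and 43.5 and 28.2 RPKM with the inhibitor (log2 fold change 0.50, SE 0.52, adjusted p = 0.666). Il21r, the receptor gene, stood at 18 and 9.24 RPKM without IL-21, 33.8 and 63.1 with IL-21 and 14.1 and 3.55 with the inhibitor (log2 fold change -2.34, SE 0.68, adjusted p = 0.124), so that both inhibitor libraries lay below both IL-21 libraries. The members with the smallest p were Il10, a cytokine that IL-21 is known to raise through STAT3, at 0 and 0 RPKM without IL-21, 105 and 79 with IL-21 and 0 and 1.35 with the inhibitor (adjusted p = 0.0679), and Socs1, a feedback inhibitor of JAK kinases, at 28 and 43.4 RPKM without IL-21, 20.8 and 62.8 with IL-21 and 9.93 and 3.66 with the inhibitor (adjusted p = 0.0987). Socs3, the classical STAT3 target, was too low to be tested, at 1.44 and 6.66 RPKM without IL-21, 4.51 and 28.2 with IL-21 and 2.19 and 3.75 with the inhibitor. In the RefSeq promoters TTCNNNGAA, the spacing that STAT proteins bind, a motif that reads the same on both strands, was found within 250 bases before a start in 2 of the 34 lowered genes with an entry (5.88%, Cd160 and Fgl2) and in 8.13% of all genes in the table.

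Set against the cultures without IL-21, most called genes lay beyond them. Of the 75 genes that rose over IL-21, 60 were also called higher than without IL-21 (2.93% of all tested genes), and for 74 of 75 both inhibitor libraries lay above the 4 other culture libraries (11.4%). The exception was Ypel3. Of the 75, 23 reached the RPKM minimum only in the inhibitor libraries. Of the 48 that fell, 31 were also called lower than without IL-21 (1.8% of all tested genes), and for 43 of 48 both inhibitor libraries lay below the 4 others (21.5% of all tested genes). Both comparisons share the inhibitor libraries, so these counts are not independent of the calls. In the time course at 72 h, 3 of the 41 risen genes tested there were called lower with IL-21 (1.51% of all genes tested there) and 4 were called higher (6.57%), and 4 of the 33 fallen genes tested there were called higher with IL-21 and 0 lower. The fallen genes had a median log2 fold change of 0.71 with IL-21 at 72 h, above 0 for 27 of 33, and the risen genes of -0.15, above 0 for 18 of 41.

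Among the falls beyond the level without IL-21, several genes were near 0 with the inhibitor. Galk1, the galactokinase, was at 14.5 and 18 RPKM without IL-21, 11.8 and 20.8 RPKM with IL-21 and 0.0241 and 0 RPKM with the inhibitor, 1 and 0 counts in the last (adjusted p = 0.00652). Fam213b, a thioredoxin-like protein gene, was at 10.7 and 11.2 RPKM without IL-21, 1.12 and 2.53 with IL-21 and 0 and 0 with the inhibitor, with no count in either inhibitor library, which at a floor of 3 counts per library is at least 14.5-fold lower than with IL-21. Spaca9 was at 26.2 and 9.83 RPKM with IL-21 against 0 and 0.0699 with the inhibitor, and C1qtnf12 at 3.42 and 6.46 against 0 and 0.115 RPKM. Values near 0 were also seen at 72 h of the time course, without inhibitor. Galk1 was there at 0 and 0 RPKM both without and with IL-21. Fam213b was at 0.0682 and 0 without IL-21 and 0 and 0 with it. C1qtnf12 was at 0 and 0 without IL-21 but 2.62 and 1.44 with it. Spaca9 was at 69.7 and 101 without IL-21 and 102 and 104 with it. Levels set across experiments are a description. 6 of the 48 fallen genes had no count in either inhibitor library, of which 4 are gene models without an established name and the others are Fam213b and Timp1, against 0.24% of all tested genes. Cd160, an NK cell receptor for HVEM, was at 84.9 and 54 RPKM without IL-21, 25 and 30.9 with IL-21 and 1.49 and 1.28 with the inhibitor (log2 fold change -4.23, SE 0.41, adjusted p = 0.00652), and Pgp, a phosphoglycolate phosphatase, at 27.9 and 30.8 RPKM without IL-21, 29.1 and 23.4 with IL-21 and 4.12 and 2.95 with the inhibitor (log2 fold change -2.79, SE 0.51, adjusted p = 0.0357). Susd3, a membrane protein gene that IL-21 raised at 72 h of the time course, was at 32.8 and 38.6 RPKM without IL-21, 38.1 and 56.7 with IL-21 and 9.7 and 6.81 with the inhibitor (log2 fold change -2.41, SE 0.38, adjusted p = 0.022).

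Genes of cell division were part of this group. Of 11 tested mitosis genes 2 fell, against 1.15% of all tested genes, and 0 rose, and the fitted change was below 0 for 11 of 11, with a median of -1.23. Cdc20, the activator of the anaphase-promoting complex, was at 19.4 and 32.3 RPKM without IL-21, 1.58 and 6.39 RPKM with IL-21 and 0 and 0.0279 RPKM with the inhibitor (adjusted p = 0.0218). Ccna2, cyclin A2, was at 11.1 and 11.3 RPKM without IL-21, 6.79 and 14.7 with IL-21 and 1.52 and 0.524 with the inhibitor (log2 fold change -3.27, SE 0.66, adjusted p = 0.0453). Mxd3, a MAX partner of dividing cells, was at 11.8 and 14.8 RPKM without IL-21, 5.75 and 8.2 with IL-21 and 0.157 and 0.507 with the inhibitor (log2 fold change -4.30, SE 0.72, adjusted p = 0.0267). Low values were also seen at 72 h of the time course, without inhibitor. Cdc20 was there at 0.0562 and 0 RPKM without IL-21 and 1.36 and 0.0375 with it. Ccna2 was at 1.42 and 0.0823 RPKM without IL-21 and 3.84 and 0.704 with it. Of 27 tested DNA replication genes 0 were called, with a median of -0.38 and Dut and Rpa3 nearest (adjusted p = 0.152 and 0.152). The mitosis list had a median of 4.56 with IL-21 at 72 h of the time course, 10 of 10 above 0, and of -0.70 with IL-21 in the culture. The 72 h value is set against the libraries without IL-21 that stood apart in their mitochondrial share and number of genes seen.

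Some fallen genes were higher with IL-21 than without it in both libraries, a difference that was not itself called. Timp1, an inhibitor of matrix metalloproteinases, had no count without IL-21, 464 and 199 counts with IL-21 (42.9 and 16.6 RPKM) and no count with the inhibitor, at least 205-fold lower than with IL-21 at the same floor (adjusted p = 0.0196). DESeq2 gave it an adjusted p of 0.0986. Fgr, a SRC family kinase, was at 7.31 and 7 RPKM without IL-21, 15.7 and 30.6 with IL-21 and 1.97 and 2.97 with the inhibitor (log2 fold change -3.11, SE 0.49, adjusted p = 0.022), and Rrp1b, a nucleolar protein gene, at 6.29 and 4.89 RPKM without IL-21, 14.9 and 14 with IL-21 and 1.31 and 1.98 with the inhibitor (log2 fold change -3.04, SE 0.42, adjusted p = 0.0154). In Fgr and Rrp1b the inhibitor libraries lay below those without IL-21 as well. Metrnl, a secreted protein gene whose libraries with and without IL-21 overlapped, was at 34.2 and 22.2 RPKM without IL-21, 32.4 and 91.5 with IL-21 and 4.72 and 6.55 with the inhibitor (log2 fold change -3.33, SE 0.58, adjusted p = 0.0319).

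Among the rises outside the stress lists, Tnfrsf23, a decoy receptor for TRAIL, went from 0.642 and 0.431 to 20.6 and 17 RPKM (log2 fold change 5.22, SE 0.69, adjusted p = 0.0136). Tnfrsf26, its neighbour in the TNF receptor family, rose from 10.7 and 7.08 to 73.8 and 69 RPKM (log2 fold change 3.1, SE 0.41, adjusted p = 0.0138), with 26.7 and 43.1 RPKM without IL-21. Rgs1, which dampens chemokine receptor signalling, was at 27.5 and 25.3 RPKM without IL-21, 8.42 and 13.6 with IL-21 and 114 and 153 with the inhibitor (log2 fold change 3.72, SE 0.36, adjusted p = 0.00652). IL-21 lowered Rgs1 in the time course, with log2 fold changes of -1.37 at 6 h and -1.09 at 72 h. Clk1, a kinase of splicing factors, likewise was at 55.1 and 54.3 RPKM without IL-21, 29.2 and 31.6 with IL-21 and 113 and 119.6 with the inhibitor (log2 fold change 2.04, SE 0.27, adjusted p = 0.0138), with a log2 fold change of -1.13 with IL-21 at 72 h. Both Rgs1 and Clk1 ended above the cultures without IL-21. Tgif1, a homeobox repressor of TGF-β signalling, rose from 5.1 and 6.13 to 56.6 and 45 RPKM (log2 fold change 3.28, SE 0.36, adjusted p = 0.00706). Tnfrsf23 and Tgif1 reached the RPKM minimum only in the inhibitor libraries, so a rise was built into their being tested.

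The remaining lists held no called gene. The 21 tested interferon-stimulated genes had a median of -0.91, with Usp18 and the immunoproteasome subunit Psmb8 nearest (adjusted p = 0.0791 and 0.0854), and 17 of 21 were below 0. The 11 tested genes of ribosome biogenesis had a median of -0.81, with Nop56 and Odc1 nearest (adjusted p = 0.223 and 0.271). The 10 tested genes of cholesterol and fatty acid synthesis had a median of -0.22, with Acly, the ATP citrate lyase, nearest (adjusted p = 0.316), and the 9 tested tubulins of -0.05. Among the tubulins Tuba4a stood at 42.7 and 50.1 RPKM with IL-21 and 106 and 105 RPKM with the inhibitor, and Tuba1b at 166 and 202 RPKM with IL-21 against 81 and 57.7 with the inhibitor (adjusted p = 0.0679 and 0.123). In the NK cell identity list, with a median of 0.01, Cd244a and Ncr1 came nearest (adjusted p = 0.119 and 0.127). A simulation of this comparison on 3895 genes recovered 47.5% of 200 genes changed 4-fold, so a gene that misses the call is not shown to be unaffected. Of the 85 genes named by a rule, DESeq2 called 13 that edgeR did not call.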

How the data were processed

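Gene counts of 28 bulk RNA-Seq libraries were used: 6 cultures (2 per group), 16 time-course libraries and 6 sorted gd8.5 subset libraries. By the methods, the authors made cDNA with SMART-Seq HT and libraries with NEBNext Ultra, sequenced them on NovaSeq and aligned reads to mm10 (GRCm38) with HISAT2 2.1.0. The methods name RSEM for quantification, whereas the submitters' processing notes name featureCounts, whose layout the files have. The authors deposited whole-number read counts per gene, before any normalization, beside each gene's length. The strand setting is not given in the sources used here, so overlapping and antisense genes cannot be told apart. The other samples of the series were not analysed here.

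RPKM were computed from the counts, column totals and deposited gene lengths. Genes with RPKM above 10 in both libraries of any culture group were fitted with edgeR 4.0.16 in R 4.3.3 (TMM scaling, quasi-likelihood test, 1 fit over the 3 culture groups, no covariates, Benjamini-Hochberg adjustment), and the time course in a fit of its own over its 16 libraries. Calls needed an adjusted p under 0.05 and more than 2-fold change. Library totals were 12189886 to 29537298 counts. The common biological coefficient of variation was 0.359 in the cultures and 0.414 in the time course, so the spread between libraries and not counting error set the precision. Groups with 0 counts were taken at 3 counts per library for bounds on fold changes, which cover counting error only.

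The procedure was tested on simulated data, where 3.06% of its calls were of unchanged genes. Alternatives were DESeq2 1.42.0, limma 3.58.1 (voom), DESeq2 size factors, other gene filters, a fit of the compared groups alone, the replicate number as a block and leaving out each library. The gene lists, the members described and the sets of IL-21 genes were chosen with earlier results of these data known. Genes were named by a rule: those that the study names for this culture, the 15 largest changes per direction among the called genes, the called members of each list, in lists without a call the 2 smallest p, and the 5 largest changes among genes opposed to the time course or beyond the untreated cultures. Predicted genes were counted but not named. Other genes named were picked after their values were seen. Some items that the rule names are not reported here.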

Additional observations from a re-analysis of the deposited data

How the results depend on the processing

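The direction of 85 named genes was kept by 85 under DESeq2, limma-voom, DESeq2 size factors, the other gene filters and the fit of the compared groups alone, but the number of calls depended strongly on the setting. Among the 85, DESeq2 called 13 that the main fit did not and missed 1 that it called. limma-voom added 2 calls among them and no gene filter 6. The 123 calls between IL-21/iSTAT3 and IL-21 became 445 with DESeq2 (249 higher, 196 lower), 461 with no gene filter, 57 with only the 2 groups fitted, 1 with filterByExpr, 664 at an unadjusted p, and 7 to 40 when 1 library was left out. limma-voom called 123 and DESeq2 size factors 117. The heat shock list kept 19 of 19 changes above 0 in every setting, with a median of 2.72 to 2.94. Of the 19, 6 reached the RPKM minimum only in the inhibitor libraries, so their rise was built in. The 15 calls of the list became 18 with DESeq2, 17 with no gene filter, 1 with filterByExpr and 4 with the replicate number as a block. They were fewer with 1 library left out. Of the 5 NRF2 calls, 5 were kept with DESeq2, limma-voom or no gene filter and 4 with DESeq2 size factors. Only 3 were kept with only the 2 groups fitted, 0 with filterByExpr or the replicate number as a block, and fewer with 1 library left out. The 12 calls of IL-21 against no IL-21 became 162 with DESeq2, 146 with no gene filter, 0 with filterByExpr (710 at an unadjusted p under 0.05) and 2 to 17 with 1 library left out, the lowest without replicate 1 of the untreated cultures. The 197 calls of IL-21/iSTAT3 against no IL-21 became 584, 652 and 21 in the same order, and 37 to 207 with 1 library left out. The 283 calls of IL-21 at 72 h of the time course became 475 with DESeq2, 755 with filterByExpr, 1519 with no gene filter, 0 with only the 2 groups fitted (206 at an unadjusted p under 0.05), and 245 to 908 with 1 library left out, the highest without replicate 1 of the cultures without IL-21. The 7 genes that changed oppositely with IL-21 at 72 h and with the inhibitor became 4 with the IL-21 effect of the same culture, 6 with that at 24 h, 8 with that at 6 h (chosen after seeing the data) and 2 to 4 with 1 library left out. The 91 genes beyond the untreated cultures became 286 with DESeq2 and 7 to 35 with 1 library left out. Leaving out 1 library turned the sign of uncalled genes: Cd55 ranged from -0.24 to 0.075, Cd3d from -0.94 to 0.77, Ighm from -0.84 to 0.41, Cd68 from -0.46 to 0.031 and Epcam from -0.90 to 0.65 (log2 fold change).

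The labels give the libraries of each group the numbers 1 and 2 without saying what a number stands for. With the replicate number as a block, calls fell from 123 to 8 for IL-21/iSTAT3 against IL-21, from 12 to 1 for IL-21 against no IL-21 and from 197 to 55 for IL-21/iSTAT3 against no IL-21, and were 253 at 72 h of the time course. Deviations of same-numbered libraries correlated at 0.598 between the untreated and IL-21 groups, -0.456 between the untreated and IL-21/iSTAT3 groups and -0.509 between the IL-21 and IL-21/iSTAT3 groups. What else the numbers stand for cannot be told from the labels. The cause of these shifts was not tested.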
